A study of Mus musculus with 11 samples.

Results

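The CC chemokines Ccl2, Ccl3, Ccl4, Ccl5, Ccl6, Ccl7, Ccl8, Ccl9, Ccl22 and Ccl24 were followed in mouse microglia on 11 single-colour Agilent arrays. These 10 genes were chosen by name, and an array probe was assigned to a gene through its RefSeq accession. Of the 10 genes, 9 had a matched probe, 1 probe each, among 23329 matched genes. Ccl8 had none and was not analysed here. Each of the 9 probes was well above background on all 11 arrays, so the filter on dim probes, which left 19555 genes, removed none of them.

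All cells came from brains of C57BL/6N mice with no transgene, and the 4 groups carry the names used in the study. A_FACS was microglia sorted from adult female mice (2 arrays), and NB_FACS was microglia sorted from newborn mice of both sexes in the first days after birth (3 arrays). Both were sorted on high CX3CR1 and intermediate CD45 and used at once. NB_Control and NB_Stim (3 arrays each) were newborn microglia shaken off long-term flask cultures that had been fed with medium conditioned by L-929 cells, a fibroblast line that secretes M-CSF. After shaking, they were kept for 1 day in medium with serum. NB_Stim also received the human forms of TGF-β1, IL-34 and CX3CL1, each at 100 ng/mL, while NB_Control received no added cytokine. Age and sex cannot be told apart between A_FACS and NB_FACS. Cultured and sorted cells also differed in how they were isolated, and the enzymatic digestion before sorting was done without a transcription inhibitor.

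Chemokines are small secreted proteins that guide the migration of leukocytes through receptors coupled to G proteins, and those of the CC class carry adjacent cysteines near the start of the mature protein. Microglia are a main source of them in the brain. Several can be grouped by receptor. CCL2 and CCL7 attract monocytes through CCR2. CCL3 and CCL5 bind CCR1. CCL6 and CCL9 are rodent chemokines that also act through CCR1. CCL22 binds CCR4, and CCL24 is an eotaxin that binds CCR3. Many of these genes are switched on by NF-κB after stimulation by cytokines or microbial products. In the mouse, Ccl2, Ccl7, Ccl8, Ccl5, Ccl9, Ccl6, Ccl3 and Ccl4 lie in that order on chromosome 11, whereas Ccl24 is on chromosome 5 and Ccl22 on chromosome 8 (gene order from RefSeq, GRCm38.p6).

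Because the results turn on genes that arose by duplication and lie next to each other, the probe sequences of 3 neighbouring pairs are shown first. Each line gives 30 bases of the probe from the array's files, and capitals mark a longest run shared with the probe of the other gene of the pair (the first in the probe of Ccl2, Ccl3 or Ccl6 where several are equally long).
Ccl2 probe: gtaggagtgaccaGTGTgacagtgaactag
Ccl7 probe: tcactttaacgttGTGTtagctgcagaatt
Ccl3 probe: tgttctgctgacAAGCTCaccctctgtcac
Ccl4 probe: caacaccatgAAGCTCtgcgtgtctgccct
Ccl6 probe: gaatgtgtctggTTCTGatacaagcttaag
Ccl9 probe: tcaactaggatgaaataaaTTCTGccttag
The longest shared run was 4 bases for Ccl2 and Ccl7, 6 bases for Ccl3 and Ccl4 and 5 bases for Ccl6 and Ccl9, within probes of 46 to 58 bases. Among all 9 probes no pair shared a run of more than 8 bases. With the probes of all other named genes on the array, the longest shared run was 13 to 15 bases. The probes of neighbouring genes are therefore separate sequences. Probes were compared only with other probes, not with the transcripts of neighbouring genes. Whether a probe also binds the transcript of a neighbour was not tested. A level is compared below only between arrays. For neighbouring genes, the difference between their levels within an array is also compared between arrays.

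The RefSeq promoter table held 5 of the 10 genes (Ccl3, Ccl6, Ccl8, Ccl9 and Ccl22). Shown are the 250 bases before the annotated start of Ccl6 and Ccl9, since these genes rose and fell together on the arrays (below). The Ccl6 window is chr11:83593088-83593337 and the Ccl9 window is chr11:83578637-83578886, both in GRCm38.p6 on the minus strand. Capitals mark matches on either strand to the κB consensus, to the AP-1 motif TGANTCA and to TATAAA.
Ccl6 promoter: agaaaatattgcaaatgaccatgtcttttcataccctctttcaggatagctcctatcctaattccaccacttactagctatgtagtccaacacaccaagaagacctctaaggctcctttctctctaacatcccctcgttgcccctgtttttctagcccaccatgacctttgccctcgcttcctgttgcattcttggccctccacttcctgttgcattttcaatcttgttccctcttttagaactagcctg
Ccl9 promoter: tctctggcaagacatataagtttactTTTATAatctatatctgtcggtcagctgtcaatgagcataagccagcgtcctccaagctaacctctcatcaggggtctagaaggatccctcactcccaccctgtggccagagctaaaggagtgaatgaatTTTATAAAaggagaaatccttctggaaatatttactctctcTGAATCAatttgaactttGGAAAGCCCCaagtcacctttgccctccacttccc
The Ccl9 window held a κB match 35 to 26 bases before the start, an AP-1 match 53 to 47 bases before it and 3 matches to TATAAA, of which the pair nearest to the start overlap each other. No match to any of these motifs was found in the windows of Ccl6, Ccl3 and Ccl22. Of 32851 mouse promoter windows of this length, 3.9% held the κB match, 6.75% the AP-1 match and 12.4% TATAAA. Matches to ISRE (GAAANNGAAA, in 2.98% of windows), to a PU.1 motif (GAGGAAGT, in 2.44%) and to a SMAD palindrome (GTCTAGAC, in 0.167%) were found in none of the 5 windows.

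Although their motif content differed, the Ccl6 and Ccl9 windows were related. Including 50 bases after the start, they aligned over 67 bases with 58 identical (86.6%) and 7 gap bases. Among the other 9 pairs of the 5 windows, the longest alignment covered 23 bases. The Ccl6 stretch ran from base -59 to base 14 and the Ccl9 stretch from base -18 to base 48, where the annotated start is base 0, so the related sequence lies further into the transcript in Ccl9. The closest 30 bases, with identical bases in capitals, matched at 27 positions.
Ccl6 bases -25 to 4: TGTTCCCTCTtTTAGAACTAGCcTGTTGtG
Ccl9 bases 9 to 38: TGTTCCCTCTcTTAGAACTAGCaTGTTGgG

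Levels are log2 intensities after quantile normalisation and are listed in the order of the replicate numbers. Differences carry their standard error (SE), and limma's test, fitted to all 19555 genes, gave the adjusted p-values. The labelled cell type was checked on microglial markers (Tmem119, P2ry12 and others), all 9 of which with a matched probe were well above background in every group. Their levels differed, however. In culture 7 of the 9 were lower (13.9% of all genes were), among them P2ry12, which fell by 6.44, and Tmem119, which fell by 3.68 on the log2 scale, and with the cytokines 4 of the 9 were higher (1.4% of all genes were), among them Tmem119 by 2.90. The log2 of their summed intensity was 17.53 to 17.66 in NB_FACS, 16.21 to 16.43 in NB_Control and 17.40 to 17.47 in NB_Stim, and its part in the chemokine results was not tested. Slide 2 held the third replicate of NB_FACS, NB_Control and NB_Stim, and slide 1 the remaining 8 arrays. Replicates 1 and 2 of a newborn group differed by a mean of 0.17 to 0.26 on the log2 scale over all genes, and replicate 3 differed from them by 0.41 to 0.50. Values within slide 1 (2 arrays a group) and slide 2 (1 array a group) are therefore given for the differences that varied most between the slides. In these bulk samples, fewer cells of a type and less RNA per cell cannot be told apart.

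**Figure D1:**
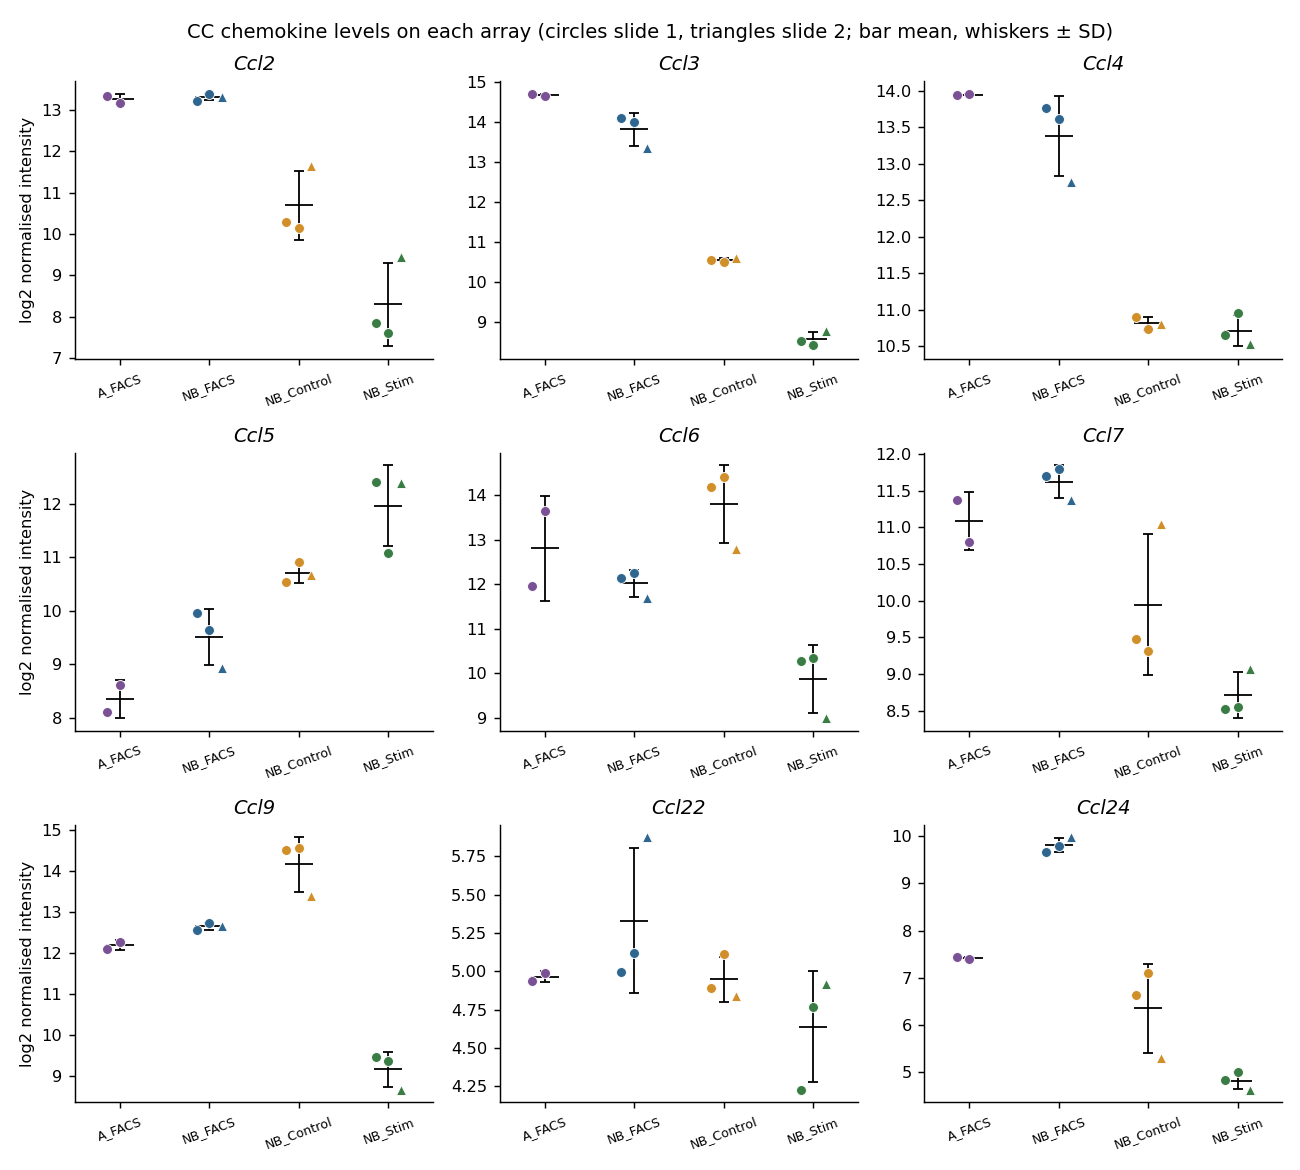
Log2 quantile-normalised intensity (y axis) of the 9 CC chemokines on each array, by group (x axis). Circles are arrays of slide 1, triangles those of slide 2, the bar is the group mean and the whiskers are ± SD (n = 3, A_FACS n = 2). Ccl2, Ccl3, Ccl4, Ccl7 and Ccl24 sit lower in both cultured groups than in NB_FACS, while Ccl6 and Ccl9 are highest in NB_Control and lowest in NB_Stim.

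The first comparison asked how the chemokines of cultured newborn microglia differ from those of freshly sorted ones. In NB_Control, 5 of the 9 chemokines fell (Ccl2, Ccl3, Ccl4, Ccl7 and Ccl24), 3 rose (Ccl5, Ccl6 and Ccl9), and Ccl22 did not pass the test. Over all genes, 15.8% were called higher and 13.9% lower in this comparison. The median log2 difference was -1.68 over the 9 chemokines against 0.09 over all genes. Arrays of the groups did not overlap for 8 of the 9 chemokines, beside 44.2% of all genes. The genes that fell encode the CCR2 ligands CCL2 and CCL7, the MIP-1 proteins CCL3 and CCL4, and the eotaxin CCL24. Those that rose encode CCL5 and both rodent CCR1 ligands.

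Ccl3, the gene of MIP-1α, was at 14.09, 13.99 and 13.34 on the NB_FACS arrays and at 10.54, 10.48 and 10.59 on the NB_Control arrays. The cultured arrays lay close together and far below every sorted array. This was a difference of -3.27 ± 0.20 (SE) on the log2 scale, or 9.64-fold (adjusted p = 3.05e-06), with -3.53 within slide 1 and -2.75 within slide 2.

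Ccl4, the gene of MIP-1β, was at 13.77, 13.61 and 12.75 in NB_FACS and at 10.90, 10.73 and 10.81 in NB_Control. Again the groups did not overlap, and the slide 2 array was the lowest sorted array for both genes. Ccl4 differed by -2.56 ± 0.24 (5.90-fold, adjusted p = 4.70e-05), with -2.87 within slide 1 and -1.94 within slide 2.

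Ccl2, the gene of the monocyte attractant MCP-1, was at 13.23, 13.39 and 13.32 in NB_FACS and at 10.28, 10.14 and 11.65 in NB_Control. All 3 cultured arrays were below the sorted ones, and the slide 2 array was the highest of the cultured arrays. The difference was -2.62 ± 0.50 (6.14-fold, adjusted p = 0.003), with -3.10 within slide 1 and -1.67 within slide 2. Ccl2 was not called with Tukey's test of the study's methods, adjusted over all genes (adjusted p = 0.0567).

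Its neighbour Ccl7, which encodes MCP-3, was at 11.69, 11.80 and 11.38 in NB_FACS and at 9.47, 9.31 and 11.05 in NB_Control. Here the slide 2 arrays lay close together while the slide 1 arrays were far apart. The difference was -1.68 ± 0.41 (3.20-fold, adjusted p = 0.0113), but it was -2.36 within slide 1 and -0.33 within slide 2. With replicates 1 and 2 of each cultured group averaged, Ccl7 was not called (-1.40, adjusted p = 0.0678). Nor was it called with the adjusted Tukey test (adjusted p = 0.137).

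Ccl24, the eotaxin gene, was at 9.67, 9.80 and 9.98 in NB_FACS and at 6.64, 7.10 and 5.30 in NB_Control. The sorted arrays were tight and the cultured ones widely spread, with slide 2 lowest. Ccl24 differed by -3.47 ± 0.37 (11.1-fold, adjusted p = 0.000103), with -2.86 within slide 1 and -4.68 within slide 2. Over all arrays this fall exceeded that of Ccl3, but within slide 1 and without NB_Control replicate 3 (-2.94) it was the smaller one.

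Ccl9, which encodes MIP-1γ, was at 12.57, 12.75 and 12.66 in NB_FACS and at 14.52, 14.57 and 13.40 in NB_Control. Every cultured array exceeded every sorted one. The difference was 1.505 ± 0.31 (2.84-fold, adjusted p = 0.00494), with 1.89 within slide 1 and 0.74 within slide 2. With Tukey's test of the study's methods, adjusted over all genes, Ccl9 was not called (adjusted p = 0.0712).

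Ccl6 was at 12.13, 12.25 and 11.68 in NB_FACS and at 14.19, 14.39 and 12.79 in NB_Control. The order of the arrays was like that of Ccl9, with slide 2 lowest among the cultured arrays. Its difference of 1.77 ± 0.55 (3.41-fold) was called at an adjusted p of 0.0355, and it was 2.10 within slide 1 and 1.11 within slide 2. The call was lost without NB_FACS replicate 1, 2 or 3 or NB_Control replicate 1 or 2, where differences of 1.47 or more remained and the adjusted p reached 0.127. It was also lost with averaged cultured replicates (1.52, adjusted p = 0.144).

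Ccl5, the gene of RANTES, which attracts T cells and monocytes, was at 9.95, 9.64 and 8.94 in NB_FACS and at 10.54, 10.92 and 10.67 in NB_Control. The groups did not overlap, and the sorted array of slide 2 lay farthest from the cultured ones. Its rise of 1.20 ± 0.37 (2.30-fold, adjusted p = 0.0357) was, like that of Ccl6, close to the threshold. The adjusted p was 0.0503 with the replicate number as a block, and it reached 0.112 without 1 array (A_FACS replicate 1, NB_FACS replicate 2 or 3, or NB_Control replicate 1, 2 or 3). The rise was 0.93 within slide 1 and 1.74 within slide 2.

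Ccl22, a ligand that attracts T helper and regulatory T cells through CCR4, was dim throughout, at 4.995, 5.12 and 5.87 in NB_FACS and at 4.89, 5.11 and 4.84 in NB_Control. The groups overlapped. The difference of -0.38 had a 95% interval from -0.94 to 0.18 (adjusted p = 0.299).

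The second comparison asked what TGF-β1, IL-34 and CX3CL1 changed in cultured newborn microglia. With the cytokines, 4 of the 9 chemokines fell (Ccl2, Ccl3, Ccl6 and Ccl9) and none was called higher by limma, although Ccl5 had a higher level with an unadjusted p of 0.00779. Over all genes only 2% were called lower and 1.4% higher. The median log2 difference was -1.53 over the 9 chemokines and 0.00 over all genes. Arrays of the groups did not overlap for 7 of the 9 chemokines, beside 24% of all genes. Both comparisons use the NB_Control arrays, so that an error of NB_Control enters them with opposite signs.

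Ccl9 had the largest difference of the 9. From 14.52, 14.57 and 13.40 in NB_Control it went to 9.47, 9.37 and 8.67 in NB_Stim. The slide 2 array was the lowest in each group, and the gap between the groups was several times the spread within them. The difference was -4.99 ± 0.31 (31.9-fold, adjusted p = 7.10e-05), with -5.13 within slide 1 and -4.73 within slide 2.

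Ccl6 went from 14.19, 14.39 and 12.79 to 10.28, 10.33 and 8.99. Once more slide 2 was lowest in both groups. Ccl6 differed by -3.92 ± 0.55 (15.2-fold, adjusted p = 0.00429), with values of -3.99 and -3.80 within slides 1 and 2. The adjusted Tukey test did not call it (adjusted p = 0.11). With replicates 1 and 2 of each cultured group averaged into 1 array, since they share a slide, the difference was -3.89 and was not called (adjusted p = 0.0657).

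Ccl3 went from 10.54, 10.48 and 10.59 to 8.51, 8.42 and 8.77, so it fell again from a level already lowered in culture. The difference was -1.98 ± 0.20 (3.93-fold, adjusted p = 0.000601). For Ccl3 both differences were called in the same direction.

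Ccl4 did not follow. It was at 10.66, 10.95 and 10.53 in NB_Stim, on both sides of the NB_Control arrays. The difference was -0.10, with a 95% interval from -0.64 to 0.44 (adjusted p = 0.931), which leaves out a fall as large as that of Ccl3.

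Ccl2 went from 10.28, 10.14 and 11.65 to 7.84, 7.60 and 9.45. In both groups the slide 2 array was the highest. The difference was -2.40 ± 0.50 (5.26-fold, adjusted p = 0.031), and it was -2.49 and -2.20 within slides 1 and 2. The size held but the call did not. With averaged cultured replicates the adjusted p was 0.197, in a fit of these groups alone 0.125, and with the adjusted Tukey test 0.36. The adjusted p reached 0.126 without 1 array, and the call was lost without A_FACS replicate 1, NB_FACS replicate 1 or 2, NB_Control replicate 1, 2 or 3, or NB_Stim replicate 1 or 2.

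Ccl7 was at 8.52, 8.55 and 9.07 in NB_Stim, below all 3 NB_Control arrays. Its difference of -1.23 (95% interval -2.15 to -0.31) did not pass the adjusted test (adjusted p = 0.17), and within slides it was -0.86 and -1.97.

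Ccl24 was at 4.84, 4.99 and 4.62 in NB_Stim, also below every NB_Control array. The difference of -1.53 (95% interval -2.37 to -0.70) had an adjusted p of 0.0607. It passed in 8 of 27 alternatives, among them the replicate number as a block (adjusted p = 0.0409) and slide as a block (0.0257). Without NB_Control replicate 3 it also passed, at -2.06. In the other 19 it did not pass, and limma's adjusted p reached 0.199 without 1 array. The difference was -1.15 without NB_Control replicate 2, and it shrank to -0.77 under an alternative that left out no single array. Within slides 1 and 2 it was -1.96 and -0.68.

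Ccl5 had the opposite sign, at 12.42, 11.09 and 12.39 in NB_Stim, with every array above NB_Control and replicate 2 closest to it. Its difference was 1.25 (95% interval 0.41 to 2.09, adjusted p = 0.123), and 1.69 without NB_Stim replicate 2, where it was called. Within slides 1 and 2 it was 1.02 and 1.71. Ccl22 was at 4.23, 4.77 and 4.91 and overlapped NB_Control, with a difference of -0.31 (95% interval -0.87 to 0.25, adjusted p = 0.663).

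**Figure D2:**
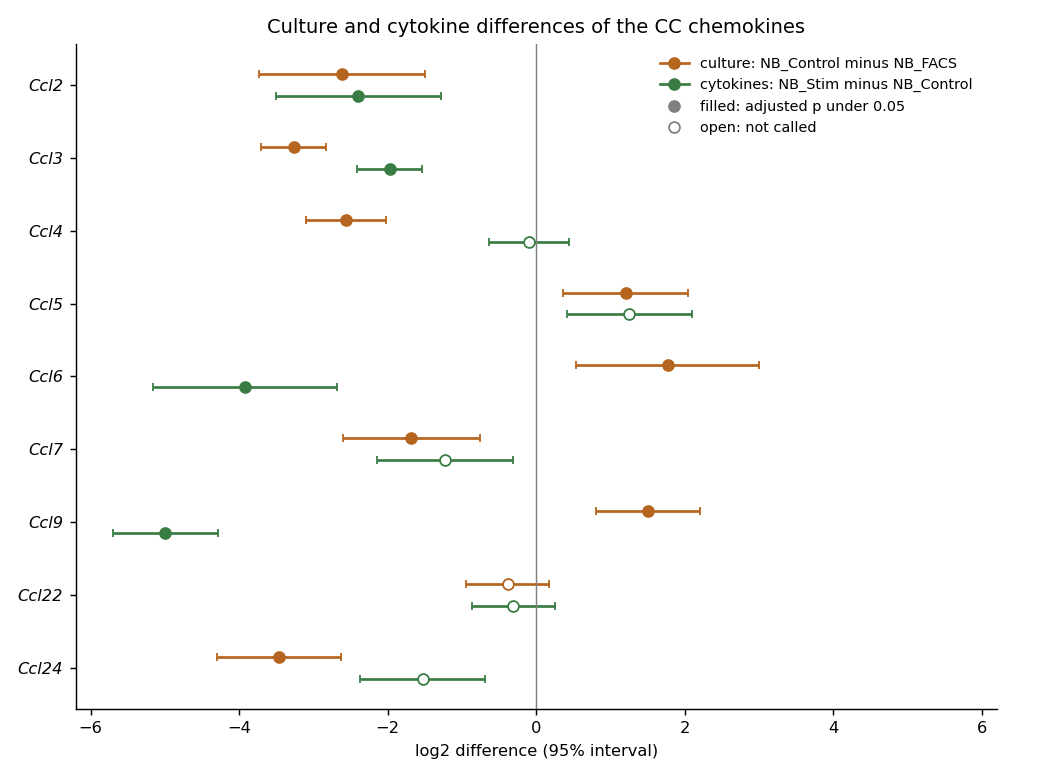
Log2 differences (x axis) of the 9 CC chemokines (y axis) between NB_Control and NB_FACS (brown) and between NB_Stim and NB_Control (green), with 95% intervals from limma. Filled points have an adjusted p under 0.05 and open points do not. Ccl6 and Ccl9 lie to the right of 0 for culture and to the left of 0 for the cytokines, Ccl3 lies to the left for both, and Ccl4 lies to the left for culture only.

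Next, neighbouring genes were compared directly, since a call for 1 gene and not for the other does not show that they differ. In every array the log2 level of 1 gene was subtracted from that of its neighbour, and the groups were compared over all 20 arrangements of the arrays (exact permutation test, two-sided). Groups of 3 allow no p below 0.1, so that this test cannot pass 0.05. Both comparisons of the 3 pairs gave 6 tests, chosen after the values had been seen.

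With the cytokines, Ccl3 changed by -1.88 more than Ccl4. All 3 NB_Stim arrays were below all 3 NB_Control arrays in this measure (exact p = 0.1, adjusted 0.12). In culture, Ccl3 changed by -0.71 more than Ccl4, again without overlap (exact p = 0.1, adjusted 0.12).

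The mean fall with the cytokines was larger for Ccl9 than for Ccl6. The measure Ccl6 minus Ccl9 rose by 1.07 without overlap (exact p = 0.1, adjusted 0.12), whereas in culture it differed by 0.26 with overlap (exact p = 0.4, adjusted 0.4). Ccl2 changed by -0.94 more than Ccl7 in culture and by -1.17 more with the cytokines (exact p = 0.1 and adjusted 0.12 for both). Among the NB_Stim arrays the slide 2 array stood apart from the other two in this last measure, at 0.38 against -0.68 and -0.95.

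**Figure D3:**
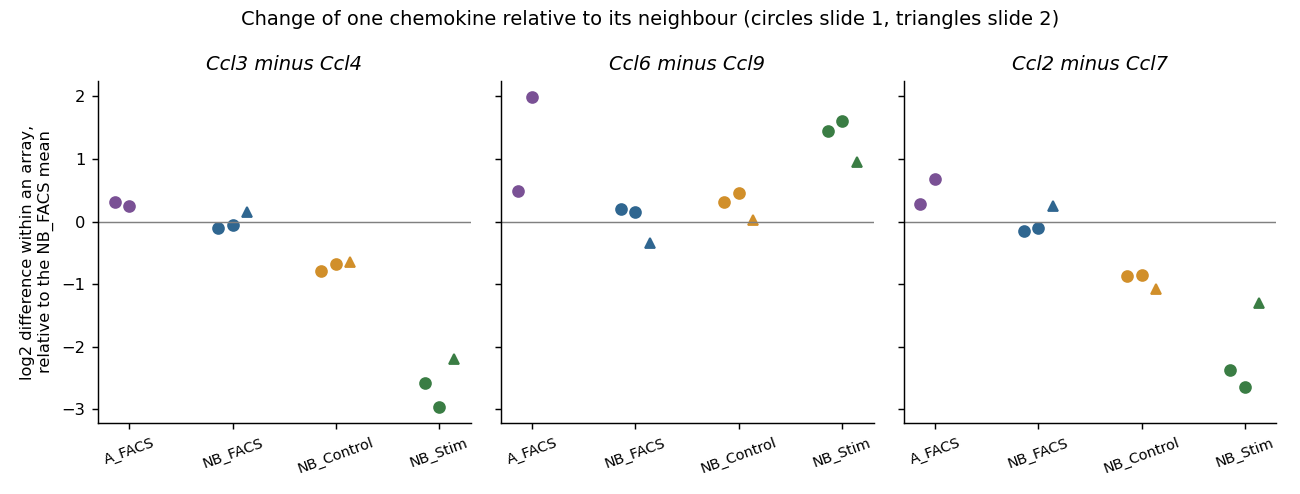
Within-array log2 difference between neighbouring chemokines (y axis, relative to its mean in NB_FACS) by group (x axis). Each point is 1 array, with circles for slide 1 and triangles for slide 2. Ccl3 minus Ccl4 is lower in NB_Control than in NB_FACS and lower again in NB_Stim, while Ccl6 minus Ccl9 is higher in NB_Stim than in NB_Control.

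How far the cytokine-treated cells lay from sorted newborn cells was then asked. This difference does not use the NB_Control mean, but the NB_Control arrays enter its SE and p through the shared spread. In NB_Stim, 7 of the 9 chemokines were lower than in NB_FACS, Ccl5 was higher and Ccl22 did not pass (over all genes, 16% were called higher and 15.1% lower). Ccl3 differed by -5.24 ± 0.20 (37.9-fold, adjusted p = 3.45e-07), and Ccl2 by -5.01 ± 0.50, while Ccl24 was 32.0-fold lower. The size for Ccl24 depended on the processing, with -5.00 here and -5.05 to -3.47 under the alternatives other than leaving out 1 array. Ccl4 (-2.66), Ccl7 (-2.91) and Ccl9 (-3.49) were lower by less. Ccl6 was lower by -2.15 ± 0.55 (adjusted p = 0.0141), a call that was lost without NB_FACS replicate 2 (adjusted p = 0.0515). It was also lost with the adjusted Tukey test (adjusted p = 0.162). Ccl9 and Ccl6, which were above the sorted level in NB_Control, were thus below it in NB_Stim, with no overlap of arrays. All 9 chemokines were without overlap here, beside 43.5% of all genes. Ccl5 was 2.45 ± 0.37 higher (5.48-fold, adjusted p = 0.000844). For Ccl22 the difference of -0.69 (adjusted p = 0.0613) passed with the replicate number as a block (adjusted p = 0.0292) and without NB_FACS replicate 1 or NB_Stim replicate 3.

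Adult and newborn sorted microglia were compared next. Of the 9 chemokines, Ccl3 was called higher and Ccl24 lower in A_FACS, where 9.75% of all genes were called higher and 12.9% lower. Arrays of the groups did not overlap for 7 of the 9 chemokines, beside 51.2% of all genes. Ccl24 was at 7.44 and 7.39 in the adult arrays, below all 3 newborn arrays. Its difference was -2.40 ± 0.42 (5.29-fold, adjusted p = 0.003). The adjusted Tukey test did not call it (adjusted p = 0.0548). Ccl3 was at 14.69 and 14.64, above the newborn arrays, with a difference of 0.86 ± 0.22 (1.81-fold, adjusted p = 0.0196). This call was lost without either A_FACS array, with the arrays scaled to their 75th percentile (0.53) or to their median (0.40), and in a fit of these 2 groups alone (adjusted p = 0.089). Within slide 1, which holds the adult arrays, the difference was 0.62.

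The other chemokines were not called between the ages. Ccl2 was nearly level, with a difference of -0.06 (95% interval -1.30 to 1.19). Ccl4 was 0.57 higher (-0.03 to 1.18) and Ccl9 0.46 lower (interval of the difference -1.25 to 0.32). The adult arrays lay apart for Ccl6, at 11.96 and 13.64. Ccl5 was at 8.10 and 8.61 in the adult arrays, the lowest levels of any group, with a difference of -1.16 (95% interval -2.10 to -0.22, adjusted p = 0.0762). It was called without NB_FACS replicate 3, without NB_Stim replicate 2 and within slide 1. With the 8 arrays of slide 1 alone, an alternative chosen after seeing the data, 5 chemokines were called, Ccl3 higher and Ccl5, Ccl7, Ccl9 and Ccl24 lower. Over all genes this fit called 3052 higher and 3379 lower of 19605, against 1907 and 2527 of 19555 in the main fit.

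Against adult sorted cells, NB_Control had 2 chemokines called higher (Ccl5 and Ccl9) and 3 lower (Ccl2, Ccl3 and Ccl4), beside 23.2% and 17.7% of all genes. Ccl3 differed by -4.13 ± 0.22 and Ccl9 by 1.97 ± 0.35. Ccl6 and Ccl7 were called as well with the replicate number as a block, at 1.36 and -1.34. NB_Stim had Ccl5 higher by 3.61 ± 0.42 and 7 chemokines lower, all but Ccl22, beside 22.8% and 17.5% of all genes. The difference of Ccl3 from the adult level, -6.10 ± 0.22 or 68.7-fold (adjusted p = 2.57e-07), was the largest of any chemokine in the 6 comparisons.

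Over the 4 groups together, limma's F test called 8 of the 9 chemokines, all but Ccl22 (adjusted p = 0.175), where it called 48.8% of all genes. In order of level, Ccl2, Ccl3, Ccl4, Ccl7 and Ccl24 ran from the sorted groups down to NB_Control and then NB_Stim. The neighbours in this order that did not differ by the adjusted test were the sorted groups for Ccl2, Ccl4 and Ccl7, the cultured groups for Ccl4, Ccl7 and Ccl24, and A_FACS and NB_Control for Ccl7 and Ccl24. Ccl5 ran the other way, from A_FACS up to NB_Stim, and of its neighbours only NB_FACS and NB_Control differed. For Ccl9 the order was NB_Control, NB_FACS, A_FACS and NB_Stim, and only its sorted groups did not differ. For Ccl6 the order was NB_Control, A_FACS, NB_FACS and NB_Stim, and neither the step from NB_FACS to A_FACS nor that from A_FACS to NB_Control passed. No step between neighbours passed for Ccl22.

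Profiles across the 11 arrays were compared by Pearson's r as a description, since the arrays share groups and slides. Ccl6 and Ccl9 had r = 0.94 with each other, Ccl2 and Ccl7 0.96, and Ccl3 and Ccl4 0.95. After group means were removed, r was 0.84, 0.81 and 0.71 for these pairs, so the arrays of a group also deviated together. This was not particular to neighbouring genes, since Ccl9 and Ccl24 had r = 0.88 in the same measure, and Ccl2 and Ccl3 had r = 0.95 over all arrays. Ccl9 and Ccl2 then had r = -0.93. In both cultured groups the slide 2 array was the highest for Ccl2 and the lowest for Ccl9.

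Among 16692 other genes well above background on every array, those most like Ccl9 were Maf (r = 0.977), a transcription factor of macrophages, Arhgap31 and Cd93. Those most like Ccl6 were Clec4a3 (0.947), a lectin receptor of myeloid cells, Tlr6, a receptor for bacterial lipopeptides, and Rnf130. Ccl3 was most like Hpgds (0.992), Klf6 and Evi2a, and Ccl4 most like Gm30916 (0.994), Ticam1, an adaptor of Toll-like receptors, and Ppp1r15a, a gene of the stress response. Ccl2 was like Evi2a and Ngly1, Ccl7 most like Rbbp8, Rnf144b and Gm7444, Ccl24 most like Nid2 (0.986), Cstf1 and Nfe2l2, and Ccl5 most like Plbd2 (0.961), Mir5134 and Acsbg1. Ccl22 had the weakest neighbours, Trub1 (0.870), Ehhadh and Acat1.

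The receptor list held 16 genes, among them receptors of other CC ligands, scavenging receptors and Cx3cr1, which binds none of the chemokines described here. Of these 13 were tested, and Ccr2 and Ccr7 had no matched probe. In culture 2 rose (Ccr3 and Ccr8) and 2 fell (Ackr2 and Cx3cr1), beside 15.8% and 13.9% of all genes. With the cytokines Cx3cr1 rose and Ccr1 and Ccr3 fell, beside 1.4% and 2% of all genes. With the replicate number as a block, the receptors and other CC ligands called with the cytokines numbered 6 in place of 3. Calls over all 19555 genes rose as well, from 274 higher and 392 lower to 482 and 711. Ccr3, the receptor of CCL24, was not well above background on any NB_FACS array (2.39, 2.64 and 2.26) and was well above it on all NB_Control arrays (5.01, 5.27 and 6.03). This is a rise of at least 3.68-fold (adjusted p = 8.68e-05). In NB_Stim it was again not well above background, at least 3.91-fold lower than in NB_Control (adjusted p = 0.000209). Ccr3 was thus higher in NB_Control than in NB_FACS, while its ligand Ccl24 was lower.

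Ackr2, a scavenging receptor that takes up inflammatory CC chemokines, was well above background in NB_FACS (5.78, 5.03 and 5.67) and on no other array. It was at least 4.15-fold lower in NB_Control (adjusted p = 0.000429) and at least 4.74-fold lower in A_FACS (adjusted p = 0.000744). Ccr1, the receptor of CCL6 and CCL9, was at 7.76, 8.04 and 7.35 in NB_Control and fell by 0.80 with the cytokines (adjusted p = 0.031). Cx3cr1, the receptor of the added CX3CL1 and the gene of the protein on which the sorted cells were gated, differed by -4.24 in culture and by 4.03 with the cytokines. Of 12 other CC ligands, 8 were tested. Ccl27a rose by 0.41 in culture (adjusted p = 0.0359). With the cytokines limma called none. An unadjusted p under 0.05 was found for 2969 of 19555 genes in all and, among these ligands, for 1, Ccl20. Its difference of -1.63 was -2.47 within slide 1 and 0.06 within slide 2, and it was well above background on only 1 of 3 NB_Stim arrays.

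Genes that drive or restrain chemokine transcription were then examined. Of 15 genes of NF-κB and its feedback, 12 fell in NB_Control and Irak3 rose, beside 13.9% and 15.8% of all genes. Nfkbiz fell by 5.13 and Tnfaip3 by 4.13 on the log2 scale, both of which are switched on by NF-κB. Rel fell by 2.60, Nfkb1 by 2.45, Zfp36, which destabilises cytokine mRNA, by 2.42, and the inhibitor genes Nfkbib, Nfkbia and Nfkbie by 2.18, 2.17 and 2.01. Of 6 inducers, 3 were called lower and 1 higher. Tnf fell by 4.05 and Il1a by 3.32, while Il6 rose by 2.30. Ifnb1 was also called lower, but it was well above background on only 1 of 3 NB_Control arrays, and its difference was -3.25 within slide 1 and -0.71 within slide 2.

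With the cytokines, 2 of the 15 NF-κB genes were called, Irak3 (-1.04) and Nfkbie (-1.17), both lower, beside 2% of all genes. Il6 fell by 2.85. Among 9 genes of the IL-4 response, 7 were tested. In culture 1 was called higher and 1 lower, beside 15.8% and 13.9% of all genes. With the cytokines 1 was called lower, beside 2% of all genes. Pparg, a nuclear receptor that restrains inflammatory genes in macrophages, rose by 3.49 in culture and fell by 4.59 with the cytokines. It was well above background on 2 of 3 NB_Stim arrays. Cish, a STAT5 target, fell by 2.43 in culture.

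**Figure D4:**
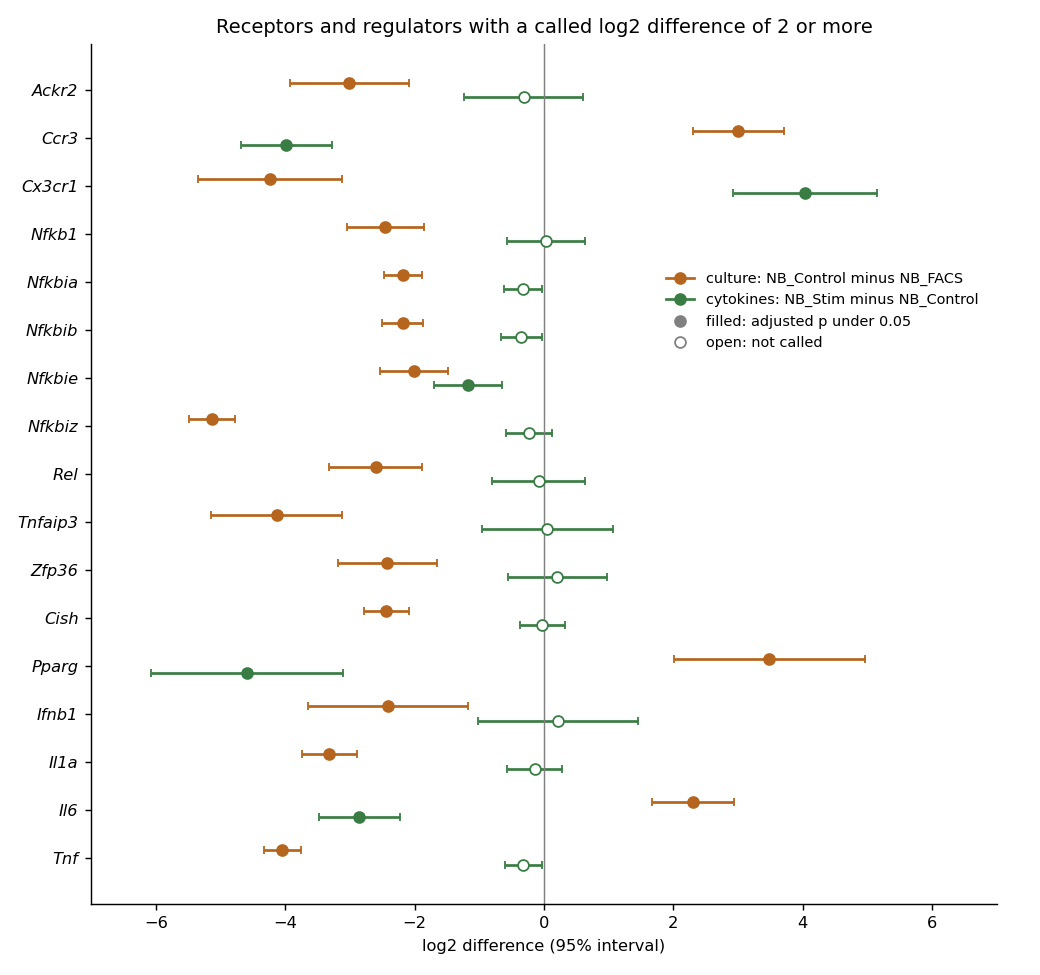
Log2 differences (x axis) with 95% intervals for the receptor and regulator genes (y axis) that were called with a difference of at least 2 in either comparison, NB_Control minus NB_FACS in brown and NB_Stim minus NB_Control in green. Filled points have an adjusted p under 0.05. Most regulators of NF-κB lie to the left of 0 for culture with an open point near 0 for the cytokines, except Nfkbie, while Ccr3, Pparg and Il6 lie to the right of 0 for culture and to the left for the cytokines.

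Several marker lists moved with the chemokines, and their part in the results was not tested. Genes that respond to tissue dissociation (Fos, Jun, Egr1, Atf3 and others, with Zfp36 and Nfkbiz shared with the NF-κB genes) were lower in NB_Control than in NB_FACS for 11 of 11 tested (13.9% of all genes were), and the log2 of their summed intensity was 17.61 to 18.04 in NB_FACS, 15.30 to 15.52 in NB_Control and 19.07 to 19.31 in A_FACS. They were thus lower in culture together with Ccl2, Ccl3, Ccl4, Ccl7 and Ccl24, and 7 of 11 were higher in adult sorted cells (9.75% of all genes were) together with Ccl3. With the cytokines 1 of 11 was lower, beside 2% of all genes.

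Markers of border macrophages were lower in A_FACS than in NB_FACS for 6 of 10 (12.9% of all genes were), together with Ccl24. Their summed level was 13.53 to 13.84 in NB_FACS and 8.82 to 9.94 in A_FACS, and the defining marker Mrc1 fell by 5.28. Between NB_Control and NB_FACS, 3 of 10 were higher, among them Pf4 by 4.71 and Ms4a7 by 6.66, and 3 lower, among them Lyve1, which was not well above background on any NB_Control array, beside 15.8% and 13.9% of all genes. With the cytokines 1 of 10 was called lower (2% of all genes were), Mrc1, which fell by 5.24. An unadjusted p under 0.05 was found for 5 of 10, beside 2969 of 19555 genes in all. The median difference of the list was then -1.61, and its summed level went from 15.51 to 16.42 in NB_Control to 14.25 to 15.01 in NB_Stim, in the direction of Ccl2, Ccl3, Ccl6 and Ccl9.

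Fibroblast markers rose in culture for 4 of 6 (15.8% of all genes did), with a summed level of 9.59 to 10.03 in NB_FACS and 13.58 to 13.97 in NB_Control. This was in the direction of Ccl5, Ccl6 and Ccl9 and against that of Ccl2, Ccl3, Ccl4, Ccl7 and Ccl24. With the cytokines 1 of 6 was lower (2% of all genes were). The median difference of the list was then -0.12, and its summed level was 12.79 to 13.93 in NB_Stim. Endothelial markers fell in culture for 3 of 5 (13.9% of all genes did). Their summed level was 12.19 to 12.65 in NB_FACS and 9.95 to 10.13 in NB_Control. This was in the direction of Ccl2, Ccl3, Ccl4, Ccl7 and Ccl24 and against that of Ccl5, Ccl6 and Ccl9. With the cytokines 1 of 5 was higher, beside 1.4% of all genes. Erythroid markers fell for 3 of 4 (13.9% of all genes did), and their summed level was 17.04 to 17.44 in NB_FACS and 5.80 to 6.04 in NB_Control. Of 4 tested markers of T and NK cells, which are known to express Ccl5, 1 was called higher in culture (15.8% of all genes were). This was Cd3e, higher by 0.53 (adjusted p = 0.0267), and the other 3 were not called. Limma called none with the cytokines, with 0 at an unadjusted p under 0.05, and the summed level of these markers was 9.83 to 9.94 in NB_FACS, 9.84 to 10.07 in NB_Control and 9.76 to 10.12 in NB_Stim.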

How the data were processed

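RNA of 11 samples was measured on 1-colour Agilent arrays. The authors deposited scanner files with 1 background-subtracted signal intensity per spot (Agilent Feature Extraction 11.5.1.1) and a series table of the same intensities, with no scaling between arrays. Unflagged spots of a probe were averaged, and 59899 of 60037 probes had such a spot on every array. Log2 intensities of these 59899 probes were quantile normalised, which the study's methods also name. Probes stayed in when 1 group or more had them well above background on all of its arrays (44727 probes), and probes were averaged per gene. One mean per group was fitted to 19555 genes in limma 3.58.1 under R 4.3.3, with Benjamini-Hochberg adjustment in each comparison and calls at an adjusted p under 0.05. Where a gene was not well above background in 1 group, a bound on the fold is given. The scripts were tested on simulated data. Sequences were read with Biopython 1.88, and figures drawn with matplotlib 3.10.9.

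The 10 chemokines and all gene lists were chosen with earlier results of these data known. Named are all 10 chemokines, receptors, other ligands and regulators called in culture or with the cytokines with a log2 difference of at least 2, the 3 genes with the profile most like each chemokine, and markers of cell type lists that move with a chemokine. Ccr1, Ccr8, Ccl20, Ccl27a and Irak3 were named after their values were seen. A few genes of these lists and profiles are not reported here. Lists were described by counts and were not tested as sets. Replicates are independent by the study's methods. Same-numbered newborn arrays deviated together (r 0.112 to 0.489). Replicates 1 and 2 share slide 1, and there differently numbered arrays of 2 newborn groups did so too (r 0.185 to 0.364). These values therefore cannot tell pairing by number from slide. The main fit was unpaired, and the number was a block in an alternative, with blocked values beside results they change. Slide and scan coincided. The number of arrays limits the precision.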

Additional observations from a re-analysis of the deposited data

How the results depend on the processing

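Of 54 member differences (9 chemokines in 6 comparisons), 30 kept their direction and their side of the threshold under every alternative, and 3 changed sign in at least 1. None of the latter was called. These were Ccl2 between A_FACS and NB_FACS (0.30 with slide or the replicate number as a block, -0.14 to 0.0268 without 1 array), Ccl6 between the same groups (-0.0573 to 1.62 without 1 array), and Ccl22 between NB_Control and A_FACS (0.0113 with normexp background correction, 0.0372 with slide 1 only, -0.10 to 0.0372 without 1 array). The replicate block moved no count of called chemokines by more than 1.5 times and changed no chemokine call beyond those given for Ccl5, Ccl6, Ccl7, Ccl22 and Ccl24, but it raised the called receptors and other ligands with the cytokines from 3 to 6 (5 with slide as a block and 5 within slide 1). Over all 19555 genes, 274 were called higher and 392 lower with the cytokines in the main fit. The replicate block gave 482 and 711, slide as a block 583 and 893, and slide 1 alone 409 and 610 of 19605.

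Called chemokines in culture numbered 6 to 8 without 1 array and 3 with Tukey's test of the study's methods after Benjamini-Hochberg adjustment, which like the fit within slide 1 was added after seeing the data. Under that test 3 were lower and 0 higher, against 6 in all before adjustment over genes. With the cytokines they numbered 3 to 4 without 1 array, and 2 with cultured replicates 1 and 2 averaged and with the adjusted Tukey test. Between the ages they numbered 1 to 3 without 1 array (1 without either A_FACS array, 3 without NB_FACS replicate 3 or NB_Stim replicate 2), 1 with 75th percentile scaling, in a fit of these groups alone and with averaged replicates, 0 with the adjusted Tukey test (2 before adjustment over genes) and 5 within slide 1. Between NB_Control and A_FACS, 8 were called within slide 1, beside 5931 genes higher and 4373 lower of 19605. Receptors and other ligands called in culture numbered 3 to 6 without 1 array (3 without NB_FACS, NB_Control or NB_Stim replicate 2) and 8 within slide 1. Within slide 1, 4504 of 19605 genes were called higher in culture and 3543 lower. Regulators called with the cytokines numbered 2 to 5 without 1 array (2 without replicate 1 or 2 of either cultured group). Where leaving out an A_FACS array left 1, it was assumed to vary like the other groups. The causes were not tested.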
